A study of Homo sapiens with 6 samples.

Results

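ANK1, the gene of ankyrin-R, was examined together with 8 relatives of the membrane skeleton in BT-549, an established cell line of triple-negative breast cancer (TNBC), after silencing of the long noncoding RNA NEAT1. The 9 genes were ANK1, ANK2 and ANK3 of the ankyrins, SPTAN1 and SPTBN1 of the spectrins, and EPB41, EPB41L1, EPB41L2 and EPB41L3 of the protein 4.1 family, out of 25545 genes in the expression table. ANK1 was selected for its measured difference between the groups, and the relatives were selected by family name with the results of the same comparison known, so the differences of the 9 genes are descriptions, and no p-value is given for them. Where a member is counted past a threshold, the count describes the selection and supports nothing. The study compared 3 libraries of BT-549 cells given a control siRNA (CsiRNA) by transfection with 3 libraries given an siRNA against NEAT1 (NEAT1siRNA), all collected 48 h after transfection. No genotype, other agent or time separated the groups in the labels, and the cells of both were grown in medium with serum and insulin. Each group is a transient transfection of 1 established line with 1 siRNA, and the labels state that cells were cultured in triplicate without saying whether the cultures were independent, so that errors and p-values measure the spread between these libraries only. The titles of all 6 libraries also carry the prefix tet-, which the labels do not explain.

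Ankyrins, spectrins and 4.1 proteins make up the skeleton that lies under the plasma membrane. Spectrin α and β chains pair into long flexible rods, the rods are tied to short actin filaments at junctions held by 4.1 proteins, and ankyrins link β-spectrin to membrane proteins such as anion exchangers, the Na,K-ATPase and cell adhesion molecules. The network was first described in red blood cells, where ankyrin-R and protein 4.1R are abundant, and loss of ankyrin-R causes hereditary spherocytosis. Most other cells use SPTAN1 and SPTBN1 as their spectrins, with ankyrin-B and ankyrin-G, encoded by ANK2 and ANK3, as the common adaptors.

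The libraries were measured as TPM, reads per gene divided by gene length and scaled to a fixed total, and reads per gene were recovered by joining the TPM with the deposited mean normalized counts. Recovered reads came to between 15787441 and 20342662 per library. NEAT1, the targeted gene, was at 13.4, 7.68 and 10.8 TPM with CsiRNA and at 4.36, 2.96 and 2.73 TPM with NEAT1siRNA (values here and further on in the order of replicates 1, 2 and 3), so every library labelled NEAT1siRNA lay under every CsiRNA library, with both NEAT1 isoforms counted in 1 row. The mesenchymal genes VIM, FN1, CDH2 and ZEB1 were at or above 1 TPM, and ESR1, PGR, CDH1 and EPCAM were under 1 TPM in all 6 libraries. A set of 4 short noncoding RNAs held 64.4% to 68.1% of the TPM of a library but 2.30% to 3.01% of its reads, so TPM of every member depended on their amount, and ratios between members within a library did not. The deviation of genes from their group mean followed transcript GC content most strongly in NEAT1siRNA replicate 1 (Spearman rho 0.67 across 10106 genes, which are not independent replicates) and in NEAT1siRNA replicate 2 (-0.72). No batch is given in the labels. As these were bulk libraries, fewer cells that express a gene and less RNA per cell cannot be told apart.

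In the CsiRNA libraries the detected skeleton genes spanned means from 0.0166 TPM for ANK3 to 35.3 TPM for SPTAN1. SPTAN1 was the most abundant at 35.3 ± 4.88 TPM (SD, n = 3), followed by SPTBN1 at 21.1 ± 2.97 TPM and EPB41L2 at 21.1 ± 1.26 TPM. The ranges of SPTBN1 and EPB41L2 overlapped, so the order of these neighbours was not resolved. ANK1 came next at 6.40 ± 0.440 TPM, above 74.4% of the 25545 genes. ANK2 at 1.18 ± 0.0853 TPM, EPB41L1 at 0.445 ± 0.0672 TPM and EPB41 at 0.334 ± 0.0458 TPM followed with separate ranges. ANK3 and EPB41L3 were at or near 0. In the NEAT1siRNA libraries ANK1 kept rank 4, now above 83.5% of the genes, and SPTBN1 lay below EPB41L2 with separate ranges. ANK1 was thus the predominant ankyrin transcript in BT-549 cells in both groups. The table has 1 row per gene and a fixed length for each, so these levels do not separate the long red-cell form of ANK1 from its short muscle form.

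**Figure D1:**
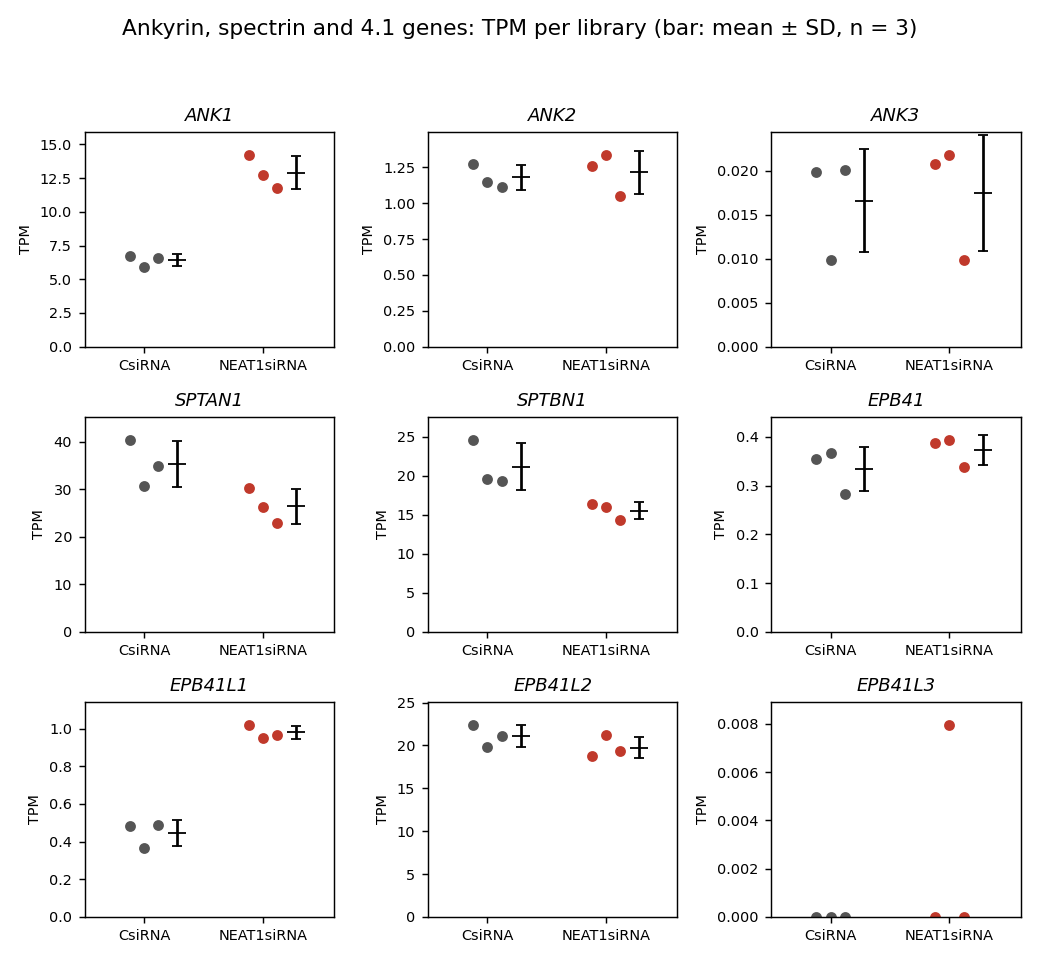
TPM (linear axis from 0, a scale of its own in each panel) of the 9 genes in each CsiRNA library (grey points) and NEAT1siRNA library (red points), with the group mean ± SD (black bars, n = 3; left out for a group with under 2 values above 0). The ANK1 points lie between 5.89 and 6.70 TPM with CsiRNA and between 11.8 and 14.2 TPM with NEAT1siRNA, and the SPTAN1 and SPTBN1 points of the NEAT1siRNA libraries lie under those of the CsiRNA libraries.

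The 300 bases around annotated transcription start sites, from 250 before to 50 after, were read from RefSeq (GRCh38.p14) for the members. Of the 9 genes, 8 matched, all but ANK1, with 30 start sites in all, so the counts of words do not cover ANK1. The start site with the most CpG dinucleotides is printed for SPTAN1 and SPTBN1, which were lower together in NEAT1siRNA cells, and for EPB41L1, which was higher. Capitals mark the GC box GGGCGG on either strand, and the other words searched for are left in lower case.
SPTAN1, chr9:128552337-128552636, plus strand: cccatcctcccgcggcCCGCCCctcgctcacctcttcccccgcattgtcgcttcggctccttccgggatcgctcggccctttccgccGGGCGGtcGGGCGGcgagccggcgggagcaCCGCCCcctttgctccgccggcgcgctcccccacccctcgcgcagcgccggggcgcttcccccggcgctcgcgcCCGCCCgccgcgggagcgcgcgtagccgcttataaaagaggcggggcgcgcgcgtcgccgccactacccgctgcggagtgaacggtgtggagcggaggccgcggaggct
SPTBN1, chr2:54456077-54456376, plus strand: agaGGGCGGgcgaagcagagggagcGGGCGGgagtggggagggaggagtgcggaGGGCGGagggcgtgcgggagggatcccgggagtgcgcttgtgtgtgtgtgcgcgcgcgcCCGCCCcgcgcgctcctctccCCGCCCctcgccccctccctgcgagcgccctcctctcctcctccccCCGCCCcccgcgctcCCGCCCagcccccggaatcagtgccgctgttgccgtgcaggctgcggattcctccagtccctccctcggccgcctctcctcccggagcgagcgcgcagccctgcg
EPB41L1, chr20:36092460-36092759, plus strand: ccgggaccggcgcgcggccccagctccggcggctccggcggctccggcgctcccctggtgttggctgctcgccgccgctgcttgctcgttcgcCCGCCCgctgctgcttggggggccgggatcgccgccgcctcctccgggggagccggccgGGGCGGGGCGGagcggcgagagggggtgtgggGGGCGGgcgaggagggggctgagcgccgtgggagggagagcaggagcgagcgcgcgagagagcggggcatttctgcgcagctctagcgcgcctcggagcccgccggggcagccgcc
The SPTAN1 window was 78.0% G or C with 53 CpG dinucleotides, 5 GC boxes and 1 TATAAA. The first SPTBN1 window was 77.3% G or C with 37 CpG dinucleotides and 7 GC boxes, and its second, at chr2:54558133-54558432, held 36 CpG dinucleotides and 2 GC boxes. EPB41L1 had 2 start sites at 80.7% and 80.3% G or C with 4 and 5 GC boxes. It also had 1 start site at 40.3% G or C with 2 CpG dinucleotides and none of the GC boxes. These genes were chosen for printing with their directions known, and which start site the cells used was not measured. A part of base composition or GC boxes in the differences was not tested. Across the 30 start sites 11 held a GC box (36.7%), against 45.0% of 35116 human start sites. The E-box CACGTG, bound by MYC and related factors, was found in 1 of 30 windows against 7.26% of all, the AP-1 word TGACTCA in 0 of 30 against 4.95%, the GATA word AGATAA in 3 of 30 against 10.3% and TATAAA in 3 of 30 against 11.5%, each counted on both strands. A match is a word in a sequence, and no binding was measured here.

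ANK1, on the minus strand of chromosome 8 (chr8:41653220-41896741, GRCh38), had 6.70, 5.89 and 6.60 TPM with CsiRNA and 14.2, 12.7 and 11.8 TPM with NEAT1siRNA. The lowest NEAT1siRNA library was well above the highest CsiRNA library, and the groups did not overlap. The mean was 6.40 ± 0.440 TPM with CsiRNA and 12.9 ± 1.24 TPM with NEAT1siRNA (SD, n = 3), a ratio of 2.02. The log2 fold change was 0.91 with a standard error of 0.10 on log2(TPM + 1), where the added 1 makes changes of genes with few TPM look smaller. In recovered reads ANK1 had 1299, 1158 and 1580 with CsiRNA and 2972, 2808 and 2300 with NEAT1siRNA, and the fold change from limma voom on reads was 1.06 on the log2 scale with a standard error of 0.08. Counting error was therefore small beside the difference, as each library held at least 1158 reads of the gene. Over 17 alternative settings the log2 fold change ran from 0.84 without NEAT1siRNA replicate 1 to 1.06 on reads, and it was 0.94 with the trend on GC content and length removed.

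ANK2, the gene of ankyrin-B, had 1.28, 1.15 and 1.11 TPM with CsiRNA and 1.26, 1.34 and 1.05 TPM with NEAT1siRNA. The groups overlapped, and the log2 fold change was 0.02 with a standard error of 0.10. The direction of this difference was not stable, since it was -0.02 without NEAT1siRNA replicate 2. ANK3, the gene of ankyrin-G, had between 4 and 10 reads per library, equal to between 0.00981 and 0.0218 TPM, and was too low to be compared at this depth. The summed TPM of the 3 ankyrins was 7.60 ± 0.487 with CsiRNA and 14.1 ± 1.34 with NEAT1siRNA, and nearly all of it was ANK1. ANK1 made up 83.8%, 83.6% and 85.3% of the ankyrin TPM in the CsiRNA libraries and 91.7%, 90.4% and 91.7% in the NEAT1siRNA libraries. The share was higher in all 3 NEAT1siRNA libraries, and as a ratio within a library it does not depend on the scaling of the libraries.

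SPTAN1, which encodes αII-spectrin, had 40.4, 30.7 and 34.8 TPM with CsiRNA and 30.2, 26.2 and 22.8 TPM with NEAT1siRNA. CsiRNA replicate 2 lay just above NEAT1siRNA replicate 1, so the groups were separated by a narrow gap. The ratio of the means was 0.748, and the log2 fold change was -0.41 with a standard error of 0.11. SPTBN1, which encodes βII-spectrin and carries the binding site for ankyrin, had 24.6, 19.6 and 19.3 TPM with CsiRNA and 16.3, 16.0 and 14.3 TPM with NEAT1siRNA. Its groups did not overlap either, although CsiRNA replicate 1 stood above its own group. The ratio of the means was 0.734, and the log2 fold change was -0.42 with a standard error of 0.10. On recovered reads, of which each library held between 3781 and 7064 for these genes, the log2 fold changes were -0.37 for SPTAN1 and -0.39 for SPTBN1. The spectrin chains were lower in NEAT1siRNA cells in all 17 alternative settings, but the size depended on single libraries. Without CsiRNA replicate 1 the log2 fold change was -0.31 for both genes, and without NEAT1siRNA replicate 3 it was -0.31 for SPTAN1 and -0.36 for SPTBN1, and both genes were then no longer past the threshold. The same held with no filter on TPM, where the log2 fold changes were -0.41 and -0.42 as before.

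The paired chains moved together. The ratio of SPTBN1 to SPTAN1 TPM was 0.608, 0.639 and 0.554 in the CsiRNA libraries and 0.541, 0.610 and 0.624 in the NEAT1siRNA libraries, with means of 0.600 ± 0.0431 and 0.592 ± 0.0443. These ranges overlapped. The ratio of ANK1 to SPTBN1, an adaptor and the chain it binds, was 0.273, 0.301 and 0.342 with CsiRNA and 0.872, 0.797 and 0.826 with NEAT1siRNA. The mean ratio was 0.305 ± 0.0350 with CsiRNA and 0.831 ± 0.0379 with NEAT1siRNA, or 2.72 times higher, and it does not depend on how a library was scaled. This ratio was computed after the values of both genes were seen and is a description of the transcripts, not of the proteins.

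**Figure D2:**
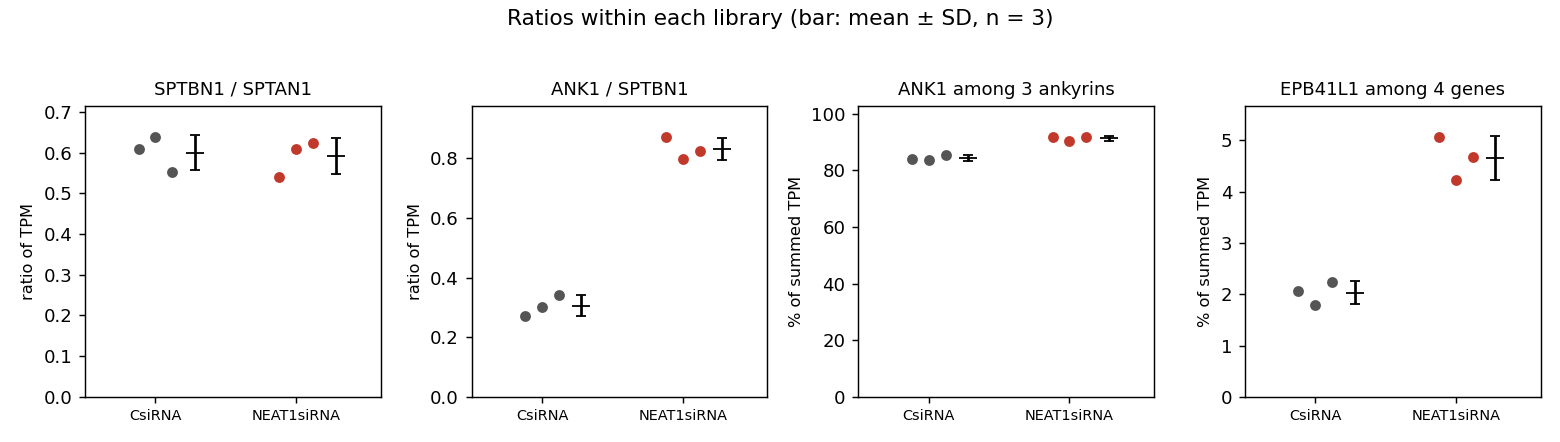
Ratios of TPM within each library for CsiRNA (grey points) and NEAT1siRNA (red points), with the group mean ± SD (black bars, n = 3): SPTBN1 over SPTAN1, ANK1 over SPTBN1, ANK1 as a percentage of the 3 ankyrins, and EPB41L1 as a percentage of the 4 members of its family. The SPTBN1 to SPTAN1 ratio overlaps between the groups at means of 0.600 and 0.592, and the other 3 ratios are higher in every NEAT1siRNA library.

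Among the 4.1 genes, EPB41L2, which encodes the widely expressed 4.1G, carried nearly all of the signal. It had 22.4, 19.9 and 21.1 TPM with CsiRNA and 18.7, 21.2 and 19.4 TPM with NEAT1siRNA, and the groups overlapped (log2 fold change -0.09, standard error 0.09). EPB41L1, which encodes 4.1N, the form first described in neurons, had 0.480, 0.368 and 0.488 TPM with CsiRNA and 1.02, 0.952 and 0.968 TPM with NEAT1siRNA. The groups did not overlap, and the means of 0.445 ± 0.0672 and 0.979 ± 0.0353 TPM gave a ratio of 2.20 at a level well under that of ANK1. EPB41L1 was under the minimum mean of 1 TPM and was therefore compared mainly on reads, where it had 67, 52 and 84 with CsiRNA and 153, 151 and 136 with NEAT1siRNA. The log2 fold change on reads was 1.18 with a standard error of 0.15, and leaving out each library in turn gave 1.07 to 1.28. On log2(TPM + 1), where the added 1 exceeds the level of this gene in most libraries, the value was 0.45 once the TPM filter was dropped and 0.77 with TPM rescaled without the short noncoding RNAs. EPB41, the gene of the red-cell 4.1R, had 45 to 48 reads with CsiRNA and 44 to 58 with NEAT1siRNA. Its groups overlapped at 0.334 ± 0.0458 and 0.373 ± 0.0310 TPM, and its log2 fold change on reads was 0.22 with a standard error of 0.18. EPB41L3, which encodes 4.1B, was at 0 in 5 libraries and had 1 read in NEAT1siRNA replicate 2, where a count of 0 allows up to 3 reads by counting error, so there was no level to compare.
The summed TPM of the family was 21.9 ± 1.31 with CsiRNA and 21.1 ± 1.26 with NEAT1siRNA. EPB41L1 made up 2.07%, 1.79% and 2.23% of it in the CsiRNA libraries and 5.06%, 4.22% and 4.68% in the NEAT1siRNA libraries, and EPB41L2 made up over 90% in all 6. The family totals of the groups overlapped, while the minor member EPB41L1 was higher in each NEAT1siRNA library.

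**Figure D3:**
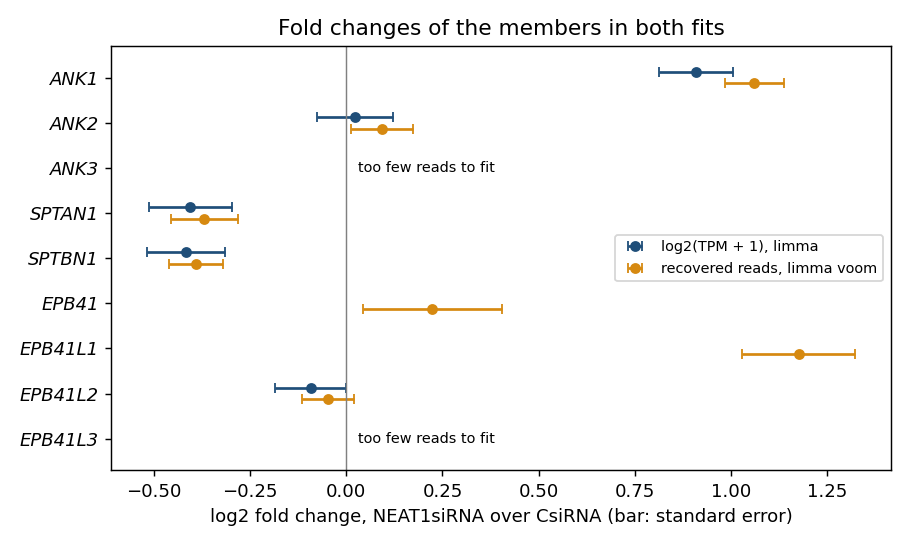
Log2 fold change of NEAT1siRNA over CsiRNA (horizontal axis) with its standard error (bars) for each gene, from limma on log2(TPM + 1) (blue) and from limma voom on recovered reads (orange). ANK1 lies at 0.91 and 1.06 and EPB41L1, under the TPM minimum, at 1.18 on reads, SPTAN1 and SPTBN1 lie between -0.42 and -0.37, and ANK3 and EPB41L3 had too few reads to be fitted.

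A gene was counted as past the threshold at a Benjamini-Hochberg adjusted p under 0.05 over all genes tested. On log2(TPM + 1), 5 of the 9 members reached a mean of 1 TPM and entered the comparison. Of these, ANK1 was past the threshold with higher expression, where 4.99% of the 10721 genes tested were, and SPTAN1 and SPTBN1 were past it with lower expression, where 8.98% were. On recovered reads 7 members were compared, with ANK1 and EPB41L1 higher, where 11.0% of the 12716 genes were, and SPTAN1 and SPTBN1 lower, where 10.8% were. TPM ranges that did not overlap were found for ANK1 among the 5 with higher values, where 11.0% of the 10721 genes had them, and for the 2 spectrins with lower values, where 19.3% had them. As the members were selected with this comparison known, nothing is read from these counts. The median log2 fold change was -0.09 over the 5 members and -0.04 over all genes on the TPM scale. On reads it was 0.09 over the 7 members and 0.00 over all genes. The sign of the members' median differed between these comparisons, which did not hold the same members, and nothing is read from it either.

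The proteins that ankyrins and 4.1 proteins hold in the membrane were followed through a list of 18 genes, of which 9 reached a mean of 1 TPM. Of these, 2 fell and 0 rose, where 8.98% and 4.99% of all genes tested did, with a median log2 fold change of -0.20 against -0.04 over all genes. ITPR1, the inositol trisphosphate receptor that releases calcium from the endoplasmic reticulum and binds ankyrin, had 4.78, 3.86 and 3.95 TPM with CsiRNA and 2.87, 2.89 and 2.25 TPM with NEAT1siRNA (log2 fold change -0.50, standard error 0.10, adjusted p = 0.00161). CD44, the hyaluronan receptor, had 279, 259 and 248 TPM with CsiRNA and 200.0, 231 and 205 TPM with NEAT1siRNA (log2 fold change -0.31, standard error 0.09, adjusted p = 0.0187). All 3 NEAT1siRNA libraries lay under all 3 CsiRNA libraries for both genes. The call of ITPR1 was lost with no filter on TPM, and that of CD44 in 5 of 17 alternative settings, with the highest adjusted p at 0.133. The β subunit genes of the Na,K-ATPase, the sodium pump and an ankyrin cargo of epithelial cells, did not pass the test. ATP1B1 was at 30.4 TPM with CsiRNA and 26.6 TPM with NEAT1siRNA, and ATP1B3 was at 128 and 127 TPM. The Na/Ca exchanger SLC8A1 missed the threshold on log2(TPM + 1) (log2 fold change -0.28, adjusted p = 0.0523) and passed it on reads (-0.26, adjusted p = 0.0104). SLC8A1 was past the threshold in 8 of 17 alternative settings. On reads 14 of the 18 genes were compared, and the adhesion molecule CADM1, a partner of 4.1B, was the one that rose, from 0.398 to 0.652 TPM (log2 fold change 0.80 on reads, adjusted p = 0.00896). The neuronal ankyrin partners NRCAM, NFASC and CHL1 and the red-cell anion exchanger SLC4A1 were all under 0.01 TPM on average in both groups.

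The FERM relatives of the 4.1 proteins, which link membrane proteins to actin, and the scaffolds DLG1 and CASK were all expressed. Of these 6 genes 1 rose and 1 fell on log2(TPM + 1), where 4.99% and 8.98% of all genes tested did. NF2, which encodes the tumour suppressor merlin, had 46.5, 43.7 and 40.9 TPM with CsiRNA and 32.0, 30.8 and 29.4 TPM with NEAT1siRNA (log2 fold change -0.49, standard error 0.09, adjusted p = 0.000508). It was past the threshold in all 17 alternative settings. RDX, which encodes radixin, had 40.9, 42.3 and 41.4 TPM with CsiRNA and 49.9, 61.4 and 50.5 TPM with NEAT1siRNA (log2 fold change 0.36, standard error 0.09, adjusted p = 0.0105). The rise was highest in NEAT1siRNA replicate 2, and the adjusted p reached 0.0854 among the alternatives. On reads the scaffold gene DLG1 rose as well (0.20, adjusted p = 0.0306), but DLG1 was past the threshold in only 3 of 17 alternative settings. The paralogs EZR, at 98.9 and 90.1 TPM, and MSN, at 167 and 163 TPM, did not pass the test, so that radixin and merlin moved in opposite directions beside ezrin and moesin values with log2 fold changes of -0.13 and -0.03.

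Of the 8 other spectrin and 4.1 genes, 2 reached a mean of 1 TPM and 0 of them passed the test. The red-cell spectrin gene SPTB was under 0.02 TPM on average in both groups. EPB41L4B, a FERM relative of the 4.1 proteins, rose on reads (0.37, adjusted p = 0.00865) and did not pass the test on log2(TPM + 1) (0.19, adjusted p = 0.200). EPB41L4B was past the threshold in 4 of 16 alternative settings. Of the 13 genes of the spectrin-actin junction, which include the adducins, tropomodulins and tropomyosins, 7 were tested on log2(TPM + 1) and 9 on reads, and 0 passed in either comparison. Their median log2 fold changes were -0.04 and 0.01, the same as over all genes to within 0.01. The 7 genes ran from -0.13 to 0.17 on log2(TPM + 1), with ADD1, TPM1, TPM3 and TMOD3 between -0.08 and 0.09. On reads the 9 genes ran from -0.40 to 0.39. Of the 4 genes of the calpain system, the protease that cuts spectrin and its inhibitor, 0 passed on log2(TPM + 1). On reads CAPN1, the catalytic subunit of µ-calpain, rose (0.26, adjusted p = 0.00931), and CAST, the inhibitor calpastatin, rose as well (0.27, adjusted p = 0.00810). Of 17 alternative settings, CAPN1 was past the threshold in 4 and CAST in 6. Over all 49 listed partners, 1 rose and 3 fell of 28 tested on log2(TPM + 1), where 4.99% and 8.98% of all genes did, and 6 rose and 5 fell of 36 compared on reads, where 11.0% and 10.8% did. No test compared these counts with the shares over all genes. As the lists were chosen with earlier results of these data known, nothing is read from these counts or from those of the single lists.

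**Figure D4:**
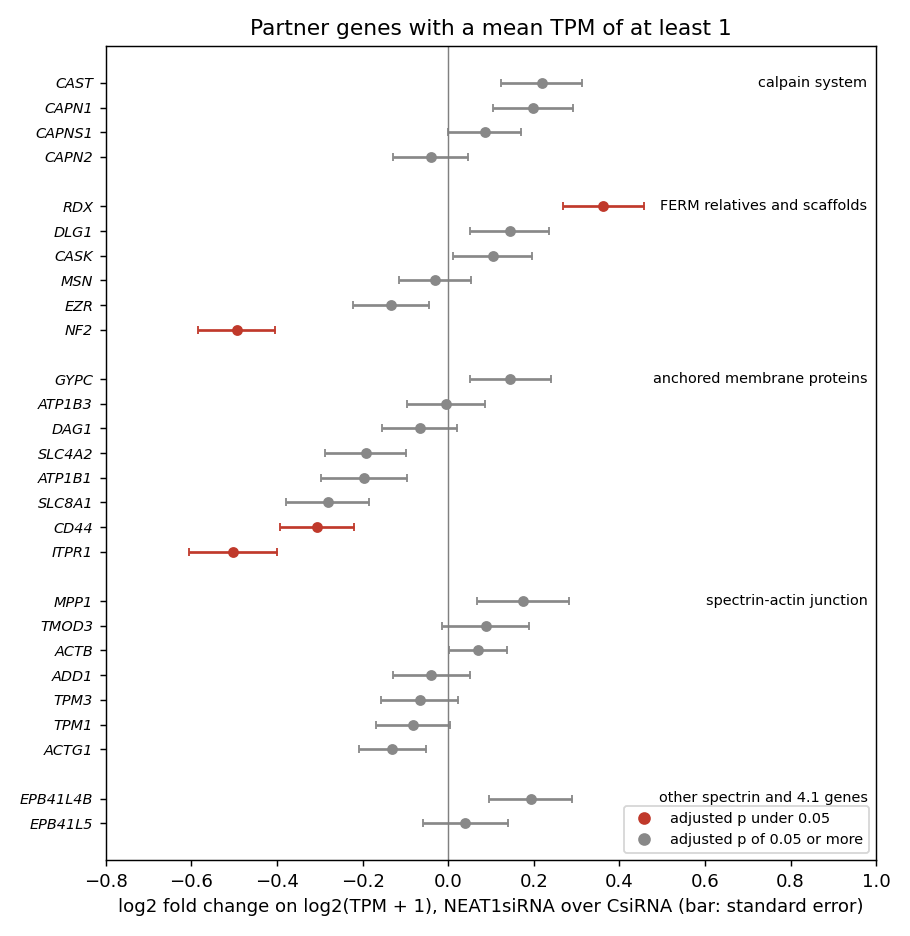
Log2 fold change of NEAT1siRNA over CsiRNA on log2(TPM + 1) (horizontal axis) with its standard error (bars) for 27 of the 28 partner genes that reached a mean of 1 TPM, by list. Red points have an adjusted p under 0.05: NF2, ITPR1 and CD44 lie between -0.50 and -0.31 and RDX at 0.36, and no gene of the spectrin-actin junction or the calpain system is red.

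ANK1 is known as a gene of red cells and striated muscle, so markers of both were read in the same libraries. Of 13 markers of red cell precursors, 7 were at 0 in every library, GATA1, HBB, HBA2 and EPB42 among them, and all 13 were under 1 TPM. Their summed level was 0.0506 to 0.154 TPM with CsiRNA and 0.00986 to 0.0412 TPM with NEAT1siRNA, which rests on at most 2 reads per gene and library, so no direction is read from it. Of 8 muscle markers, MYOG was at 0 and all were under 1 TPM, with sums of 0.510 to 0.814 TPM with CsiRNA and 0.378 to 0.589 TPM with NEAT1siRNA. Neither list summed to 1 TPM in any library. Of the 4 mesenchymal markers, FN1 (log2 fold change -0.47, adjusted p = 0.00116) and CDH2 (-0.34, adjusted p = 0.0186) fell, while VIM (-0.15, adjusted p = 0.243) and ZEB1 (-0.02, adjusted p = 0.916) did not pass the test. Their part in the differences of the spectrins was not tested.

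The nearest genes tested on either side of ANK1 were not higher. GPAT4, a glycerol phosphate acyltransferase gene 28.2 kb away, had 25.1, 23.1 and 21.7 TPM with CsiRNA and 19.3, 19.3 and 17.8 TPM with NEAT1siRNA, and fell (log2 fold change -0.29, standard error 0.09, adjusted p = 0.0343). KAT6A, a histone acetyltransferase gene 32.7 kb away on the other side, had 21.7 ± 1.46 and 21.1 ± 2.22 TPM (log2 fold change -0.04, adjusted p = 0.841). The next genes, GINS4, GOLGA7, AP3M2 and IKBKB, had log2 fold changes between -0.13 and 0.06, and 0 of these 4 passed the test. ANK1 was the only one of the 7 genes compared that was called higher, but it was selected for that difference. As 4.99% of all genes tested were called higher and 8.98% lower, nothing is read from these neighbours. A shared cause on this stretch of chromosome 8 was not tested.

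Over the 6 libraries, the genes whose log2(TPM + 1) values were most like those of ANK1 by Pearson correlation were BOC, SNED1, GSE1, MXRA5 and FLT3LG, with r of 0.998, 0.997, 0.997, 0.997 and 0.996. The points are 6 libraries in 2 groups, so the measure mostly compares a high group with a low group, and it carries no test. BOC, a hedgehog co-receptor gene, had 0.582, 0.428 and 0.563 TPM with CsiRNA and 2.03, 1.59 and 1.49 TPM with NEAT1siRNA. MXRA5, a gene of the extracellular matrix, had 5.49, 4.38 and 5.08 TPM with CsiRNA and 11.5, 10.5 and 10.1 TPM with NEAT1siRNA. Both followed ANK1 in having CsiRNA replicate 2 as the lowest library and NEAT1siRNA replicate 1 as the highest. Among the members the correlation with ANK1 was 0.27 for ANK2, -0.52 for EPB41L2, -0.66 for SPTAN1 and -0.79 for SPTBN1, so none of these relatives had the pattern of ANK1. EPB41L1, under the minimum mean of 1 TPM, was not among the genes correlated. It too had CsiRNA replicate 2 as the lowest library, at 0.368 TPM, and NEAT1siRNA replicate 1 as the highest, at 1.02 TPM.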

How the data were processed

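RNA-seq of 3 CsiRNA and 3 NEAT1siRNA libraries of BT-549 cells was used. Per the labels, stranded mRNA libraries were made from total RNA, and the submitters' processing notes name STAR, DESeq2 and GRCh38. The authors deposited TPM for 25545 genes per library. The tool that made them is not given in the sources used here. A second table from the authors gives, for 19392 genes, the normalized count signal as a mean over both groups, and beside it their own fold changes and p-values, which were not used. TPM were joined to the mean normalized counts of 18531 genes to recover reads, and where that mean was under 5, 99.8% of the values lay no more than 0.05 from whole reads, against 12.4% for the most highly expressed genes, whose reads are approximate.

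The 10721 genes that averaged 1 TPM or more were compared on log2(TPM + 1) in R 4.3.3 with limma 3.58.1 (lmFit, then eBayes with a trend on mean expression), with Benjamini-Hochberg adjustment over all genes tested and a threshold of 0.05 (two-sided). Recovered reads of the 12716 genes with a mean of at least 10 reads were compared with limma voom. This comparison calls 1396 genes higher and 1369 lower, against 535 and 963 on log2(TPM + 1). A permutation test of 3 against 3 libraries cannot go below p = 0.1, so none was used. The comparison on log2(TPM + 1) was tested on simulated reads that held no trend on GC content. The recovery of reads and the voom comparison were not tested in this way. GC content and length came from GENCODE by symbol for 94.3% of the genes tested, and other steps used Python 3.11.15. Libraries of a group differed from each other more than sampling alone gives, with a chi-square of 4.79 to 15.2 per degree of freedom over genes, so none was a copy.

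The members and the gene lists were chosen with earlier results of these data known. The text names all members, the listed partners that passed a test or illustrate a count, the 3 nearest genes tested on each side of ANK1, the 5 genes most like ANK1, and NEAT1. The ratio of ANK1 to SPTBN1 and the voom comparison with libraries left out were added after the data were seen. The results of some listed genes are not reported here, although the counts over the lists include them.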

Additional observations from a re-analysis of the deposited data

How the results depend on the processing

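ANK1, selected on this comparison, had log2 fold changes of 0.84 to 1.06 over 17 alternative settings, with 1.06 on recovered reads as the value farthest from 0.91. SPTAN1 and SPTBN1 were past the threshold in 14 of 17, and not with no filter on TPM, without CsiRNA replicate 1 or without NEAT1siRNA replicate 3. Of 1498 genes past the threshold, the number became 505 with no filter on TPM, 2765 on recovered reads, 2340 with the trend on GC content and length removed, and 784 to 2076 with single libraries left out (784 without CsiRNA replicate 1, 832 without NEAT1siRNA replicate 3). The members past the threshold were 3 in all. They were 2 with no filter on TPM (ANK1 and EPB41L1) and 4 with TPM rescaled without the short noncoding RNAs. With single libraries left out, 1 to 3 members were past the threshold, and on reads 3 or 4. The partners past it, 4 in all, were 2 with no filter on TPM, 9 with quantile normalization, 9 with centring on the median, 8 with TPM rescaled without the short noncoding RNAs, 11 on reads, 7 with the GC and length trend removed, and 2 to 7 with single libraries left out. With reads in place of TPM, which weights the long ANK2 more, the ANK1 share of the ankyrins was 1.14 times higher in place of 1.08, and the EPB41L2 share of its family was 0.960 in place of 0.970 times that of CsiRNA. The ANK1 to SPTBN1 ratio was 2.58 to 2.90 times higher with single libraries left out. Where not stated, the cause of a change was not tested.

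Replicate numbers were used as a replicate block only as an alternative, since libraries of the same number did not deviate together (r = -0.03, 0.25 and -0.11), and not every library correlated best with its own number. With the block 1640 genes, 3 members and 5 partners were past the threshold and ANK1 was at 0.91. With the block and the GC and length trend removed, the numbers were 2543 genes, 3 members and 7 partners. EPB41, ANK3 and EPB41L3 were too low for a difference of the size of that of the spectrins to be resolved at this depth.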
